A study of Mus musculus with 8 samples.

Results

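The genes described here are 42 regulators of chromatin whose RNA was measured in mouse blood stem cells and multipotent progenitors labelled wild type or Tet1 knockout. They are the subunits and partners of the Polycomb complexes, together with histone demethylases, histone deacetylases, histone acetyltransferases and the sugar transferase Ogt. Members were taken by gene symbol from a list, with no cutoff on their measured values. The list was chosen with earlier results of these data known. All 42 are present in both deposited tables, which list 19685 genes for long-term hematopoietic stem cells (LT-HSC) and 18904 for multipotent progenitors (MPP), with 17893 in common. By role they are 6 core and 4 accessory subunits of Polycomb repressive complex 2 (PRC2), 15 subunits of Polycomb repressive complex 1 (PRC1), 2 ASXL genes, 8 lysine demethylases, 4 deacetylase or Sin3a genes, 2 acetyltransferases and Ogt.

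Poly(A) RNA came from 8 libraries, 2 for each combination of population (LT-HSC or MPP) and genotype (WT or KO). LT-HSC can rebuild all blood lineages over the long term, and MPP are their more limited descendants. All were isolated by flow sorting from the bone marrow of mice of the strain labelled CD57BL/6, at an age of 6 months and 20 weeks after they had been transplanted with marrow that was wild type (WT) or Tet1 knockout (KO). A library used RNA of 10000 LT-HSC or 100000 MPP. Transplantation is shared by all 4 groups, and the labels name no other allele or agent. The deleted part of Tet1, the sex and genotype of donors and hosts, the sort gates and whether libraries of 1 group came from separate animals are not stated. The p-values below therefore measure the spread between these libraries, which may be technical.

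Levels are given as normalised CPM, counts scaled to the size of each library. Fold changes are on the log2 scale with their standard error (SE), and a gene passed when its Benjamini-Hochberg adjusted p from edgeR's quasi-likelihood test was under 0.05. Total counts were 4976459 to 5479731 per LT-HSC library and 11928659 to 12504581 per MPP library. Tet1 itself had 332 and 428 counts in LT-HSC WT against 336 and 379 in the libraries labelled LT-HSC KO (log2 fold change -0.09, SE 0.19, edgeR adjusted p = 0.765), and 1207 and 1323 in MPP WT against 765 and 855 in MPP KO (-0.62, SE 0.09, adjusted p = 0.0282). The loss of Tet1 could thus not be checked from its own counts in LT-HSC, and KO is the label of those libraries throughout. The counts of 4 Y-linked genes summed to 786 to 882 in LT-HSC WT and 66 to 73 in LT-HSC KO, and to 1979 to 2093 in MPP WT and 36 to 69 in MPP KO, so a difference in sex and one in genotype cannot be told apart. Markers fitted the labelled populations: 8 LT-HSC markers summed to 1662 to 1703 normalised CPM in LT-HSC WT and 393 to 402 in MPP WT, and 3 MPP markers to 101 to 104 and 781 to 797. In bulk RNA, fewer cells of a type and less RNA per cell cannot be told apart.

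PRC2 places methyl groups on a lysine of histone H3 through its catalytic subunit, Ezh1 or Ezh2, held together with Eed and Suz12. PRC1 ubiquitinates histone H2A through Ring1 or Rnf2, paired with 1 of the PCGF proteins, and its CBX proteins bind the mark that PRC2 leaves. Both complexes hold developmental genes silent and gather at CpG-rich promoters, and Bmi1 and Ezh1 are known for their roles in blood stem cell maintenance. Tet1, which oxidises 5-methylcytosine, also binds unmethylated CpG-rich DNA through a CXXC domain, as does Kdm2b, and it is known to associate with Sin3a and Ogt.

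The promoters of 6 members are shown because their RNAs carry the contrasts described below: Ezh1, Phf1, Phf19, Pcgf2 and Kdm1a passed the test as lower in LT-HSC labelled KO, and Ezh2, the close relative of Ezh1, did not. Each is given 5′ to 3′ on the gene's strand, from 250 bases before to 50 bases after the start of the gene in RefSeq on build GRCm38.p6, with every CpG in capitals. They lie at chr11:101226414-101226713 on the minus strand (Ezh1), chr6:47594981-47595280 on the minus strand (Ezh2), chr17:26932877-26933176 on the plus strand (Phf1), chr2:34913927-34914226 on the minus strand (Phf19), chr11:97699599-97699898 on the minus strand (Pcgf2) and chr4:136602674-136602973 on the minus strand (Kdm1a).
Ezh1: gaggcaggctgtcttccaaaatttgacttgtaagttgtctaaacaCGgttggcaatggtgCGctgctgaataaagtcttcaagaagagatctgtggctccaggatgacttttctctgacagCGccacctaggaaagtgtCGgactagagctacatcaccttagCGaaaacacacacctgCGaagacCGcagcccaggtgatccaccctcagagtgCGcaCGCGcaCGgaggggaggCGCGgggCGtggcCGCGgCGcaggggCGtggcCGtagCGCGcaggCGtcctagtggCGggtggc
Ezh2: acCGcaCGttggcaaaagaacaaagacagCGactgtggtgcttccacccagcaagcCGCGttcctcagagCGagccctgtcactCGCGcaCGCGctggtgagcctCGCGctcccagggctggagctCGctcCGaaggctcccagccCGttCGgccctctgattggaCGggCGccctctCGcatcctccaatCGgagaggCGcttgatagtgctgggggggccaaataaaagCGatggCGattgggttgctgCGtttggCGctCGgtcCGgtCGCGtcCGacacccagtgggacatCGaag
Phf1: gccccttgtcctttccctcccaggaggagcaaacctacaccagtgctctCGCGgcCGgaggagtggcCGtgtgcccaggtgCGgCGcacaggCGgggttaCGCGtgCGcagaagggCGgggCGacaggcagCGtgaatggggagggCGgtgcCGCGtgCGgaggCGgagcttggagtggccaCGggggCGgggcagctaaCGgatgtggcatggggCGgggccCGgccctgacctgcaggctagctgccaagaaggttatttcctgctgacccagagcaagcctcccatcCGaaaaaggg
Phf19: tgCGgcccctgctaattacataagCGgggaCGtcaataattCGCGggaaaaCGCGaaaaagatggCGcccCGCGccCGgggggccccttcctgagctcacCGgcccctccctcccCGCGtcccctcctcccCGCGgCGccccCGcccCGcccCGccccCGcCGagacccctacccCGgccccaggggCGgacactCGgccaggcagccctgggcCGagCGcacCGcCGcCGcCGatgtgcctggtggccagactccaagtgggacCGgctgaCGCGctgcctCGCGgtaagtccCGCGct
Pcgf2: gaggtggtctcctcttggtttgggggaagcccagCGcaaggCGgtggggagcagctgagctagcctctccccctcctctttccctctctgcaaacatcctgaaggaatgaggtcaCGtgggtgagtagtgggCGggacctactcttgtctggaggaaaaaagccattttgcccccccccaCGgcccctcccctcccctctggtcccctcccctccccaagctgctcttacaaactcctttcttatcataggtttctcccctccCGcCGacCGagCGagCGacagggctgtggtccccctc
Kdm1a: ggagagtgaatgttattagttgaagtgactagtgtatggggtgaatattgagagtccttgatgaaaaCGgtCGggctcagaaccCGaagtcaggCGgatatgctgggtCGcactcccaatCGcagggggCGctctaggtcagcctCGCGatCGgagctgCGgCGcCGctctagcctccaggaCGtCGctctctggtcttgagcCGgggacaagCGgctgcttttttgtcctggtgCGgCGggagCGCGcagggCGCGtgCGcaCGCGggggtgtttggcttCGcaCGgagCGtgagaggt
The number of CpG in these 300 bases was 23 for Ezh1, 31 for Ezh2, 24 for Phf1, 38 for Phf19, 10 for Pcgf2 and 29 for Kdm1a. Of the 42 members, 35 had an entry, with a median of 24 CpG, against 19 over 10832 genes of both tables and 7 over all 27025 RefSeq genes. These shares and medians take the first entry of each gene. The motif CG, which reads the same on both strands, occurred in 100% of the members' promoters. It occurred in 98.8% of those of genes in both tables and in 94.2% of all. A further entry of Kdm3a held 0 CpG. Members with low and with high CpG counts were thus both among those that passed, and no binding or methylation was measured in these libraries. The members without an entry are Kdm2a, Pcgf1, Kdm5a, Hdac1, Kdm6b, Hdac3 and Cbx2.

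Levels between members were compared as CPM (counts scaled to the library total) per kb of exon, the mean of 2 libraries. In LT-HSC WT they ran from 0.12 for Pcgf1 to 424.2 for Jarid2, an accessory subunit that helps PRC2 find its targets. Jarid2 ranked 80 among 16924 genes with a known exon length, and 130 in MPP WT at 297.7. Kdm6b, a demethylase that removes the PRC2 mark, was second at 58.8 in LT-HSC WT, with 34.1 in MPP WT. Rbbp7 and Suz12 stood at 41.1 and 32.1 in LT-HSC WT, Ezh2 at 22.8 and Ezh1 at 9.56. Among PCGF genes, Pcgf2 was at 16.1, Bmi1 at 10.7 and Pcgf5 at 10.5, with Pcgf3 and Pcgf6 at 4.67 and 4.86. The libraries of Bmi1 (8.77 to 12.5) and Pcgf5 (9.83 to 11.2) overlapped, so their order is not resolved. In MPP WT the order of the PCGF genes differed, with Bmi1 highest at 17.3 and Pcgf2 at 4.94. Cbx8, Cbx6 and Pcgf1 were the members at or near 1 CPM per kb or less, and Cbx6 held 2 to 17 counts in any library.

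**Figure D1:**
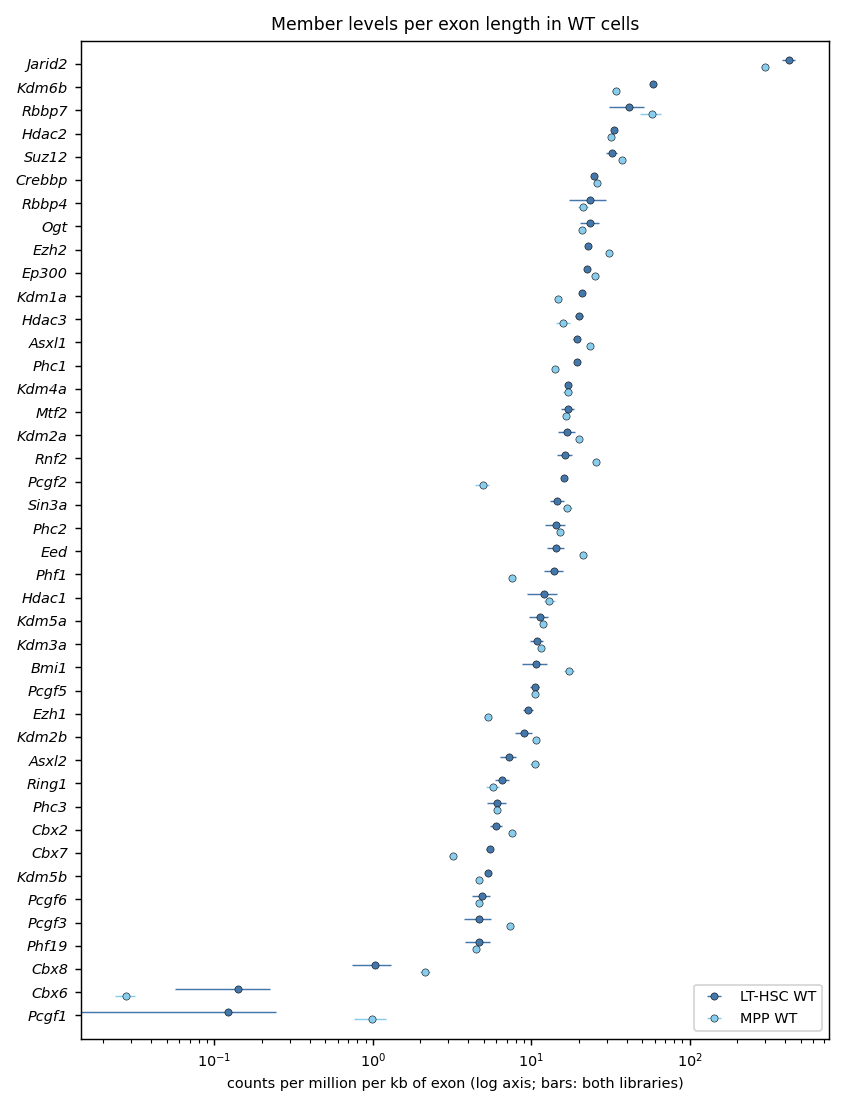
Level of each member in LT-HSC WT (dark) and MPP WT (light), in CPM per kb of exon on a log axis. Points are means of 2 libraries and bars join the libraries; the bar of Pcgf1 in LT-HSC runs off the axis because 1 library held 0 counts. Jarid2 stands apart at 424.2 and 297.7, and Pcgf2 and Ezh1 are lower in MPP while Bmi1 and Rnf2 are higher.

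WT LT-HSC were first set against WT MPP, to describe how the members differ between these populations with Tet1 present. Of 41 members tested, 7 were higher in LT-HSC, 6 were lower and 28 did not pass (Cbx6 was below the filter on low counts). Over all 14660 genes tested, 17.4% were called higher and 16.9% lower (34.3% in either direction), so the members' shares of 17.1% and 14.6% lie near the background. Members higher in LT-HSC were Ezh1, Phf1, Pcgf2, Cbx7, Phc1, Kdm1a and Kdm6b, and members lower were Eed, Rnf2, Bmi1, Pcgf1, Pcgf3 and Asxl2. The groups did not overlap for 27 of 42 members, against 71.1% of all genes tested. The 2 populations also differ in cell number per library and were deposited in separate tables, so population and library preparation cannot be told apart.

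Among PRC2 genes, Ezh1 had 76.5 and 63.4 normalised CPM in LT-HSC WT and 41.7 and 37.9 in MPP WT (log2 fold change 0.87, SE 0.16, adjusted p = 0.0103). Ezh2, the more active methyltransferase of dividing cells, had 159.0 and 140.8 against 207.9 and 205.6, a difference of -0.41 that did not pass (SE 0.13, adjusted p = 0.0545). Both Ezh1 libraries of LT-HSC lay above both of MPP, and those of Ezh2 lay below. Eed, which reads the methyl mark and stimulates the enzyme, was lower in LT-HSC, with 48.0 and 58.7 against 84.4 and 78.5 CPM (-0.56, SE 0.14, adjusted p = 0.0283). Phf1, an accessory Tudor protein, was higher, with 55.2 and 40.5 against 26.6 and 26.7 (0.90, SE 0.20, adjusted p = 0.0185). The groups did not overlap for either gene. The 7 PRC2 members that did not pass, Ezh2 included, ranged from -0.48 (Rbbp7) to 0.54 (Jarid2, 4527 and 3581 against 2754 and 3053 CPM, adjusted p = 0.0813).

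Among PRC1 genes, Pcgf2 (Mel-18) showed the largest difference of any member other than Pcgf1, with 55.9 and 55.5 normalised CPM in LT-HSC WT against 19.2 and 15.7 in MPP WT (1.73, SE 0.17, adjusted p = 0.00117). Its close relative Bmi1 was on the other side, with 35.0 and 47.8 against 63.8 and 74.4 CPM (-0.69, SE 0.18, adjusted p = 0.0315). Pcgf3, a subunit of PRC1 forms without CBX proteins, was likewise lower, with 36.3 and 50.9 against 68.7 and 72.2 (-0.64, SE 0.18, adjusted p = 0.0356). None of these 3 overlapped between groups. Rnf2 (Ring1b), the main ubiquitin ligase of PRC1, was lower in LT-HSC, with 60.5 and 71.8 against 103.0 and 108.3 CPM (-0.62, SE 0.13, adjusted p = 0.0161). The reader subunit Cbx7 was higher, with 33.7 and 35.6 against 21.9 and 19.7 (0.79, SE 0.16, adjusted p = 0.0139), and so was Phc1, a polyhomeotic subunit, with 105.6 and 95.7 against 78.7 and 71.7 (0.48, SE 0.13, adjusted p = 0.0380). All 3 were separated between groups. Pcgf1 rested on 0 and 2 counts in LT-HSC WT against 39 over MPP WT, a ratio of 8.70 (95% exact interval 2.25 to 74.4, counting error only), at an adjusted p of 0.0499.

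Outside the Polycomb complexes, Kdm6b had 430.3 and 373.4 normalised CPM in LT-HSC WT against 249.5 and 227.1 in MPP WT (0.81, SE 0.14, adjusted p = 0.00864). Kdm1a (Lsd1), which demethylates histone H3 within corepressor complexes, had 106.3 and 105.5 against 74.2 and 78.6 (0.52, SE 0.12, adjusted p = 0.0209). Asxl2, a partner of the deubiquitinase that reverses the PRC1 mark, was lower, with 101.4 and 123.1 against 157.3 and 180.4 (-0.54, SE 0.15, adjusted p = 0.0335). No library of these 3 genes crossed between groups. The known Tet1 partners Sin3a (-0.19) and Ogt (0.17) and the CXXC protein Kdm2b (-0.24) did not pass, nor did the remaining demethylases, deacetylases or acetyltransferases, which lay between -0.24 and 0.36. Without MPP WT replicate 1 only Ezh1, Kdm6b and Pcgf2 passed of these 13, and without MPP WT replicate 2 only Pcgf2, while without LT-HSC WT replicate 1 the calls of Bmi1, Pcgf1, Phc1 and Asxl2 ended. With the summed background density described below subtracted, the lower calls of Eed (adjusted p = 0.0554), Bmi1 (0.0654), Asxl2 (0.0670), Pcgf3 (0.0751) and Pcgf1 (0.131) ended, and with libraries scaled on abundant genes those of Pcgf1 (0.0528) and Pcgf3 (0.0530) did. Without the low-count filter Phf1 (0.0502), Phc1 (0.0708), Bmi1 (0.0555), Pcgf3 (0.0587), Asxl2 (0.0505) and Pcgf1 (0.0891) missed the threshold, as did Phc1 (0.0722) and Pcgf1 (0.122) in DESeq2.

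**Figure D2:**
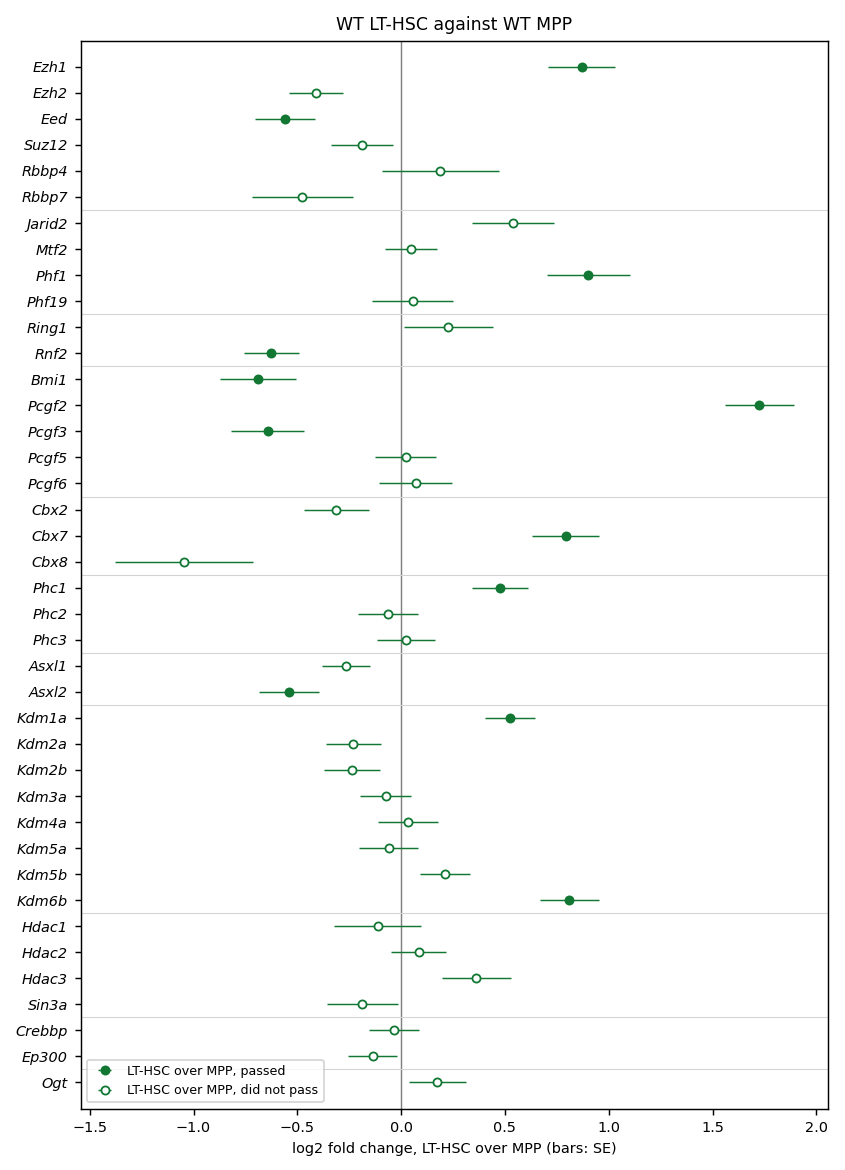
Log2 fold change of WT LT-HSC over WT MPP for 40 members, with bars of 1 SE; filled points passed an adjusted p of 0.05 and grey lines divide the roles (Cbx6 was not tested and Pcgf1 rests on 2 counts in LT-HSC). Pcgf2 (1.73), Phf1 (0.90) and Ezh1 (0.87) lie farthest to the right, and Bmi1, Pcgf3, Rnf2, Eed and Asxl2 are the filled points on the left.

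In LT-HSC, the comparison of libraries labelled KO with WT asked how the members differ between these labels in stem cells. Of 41 members tested, 8 were lower in KO and 1 was higher, while 32 did not pass. Over all 15684 genes tested, 10.9% were called lower and 22.5% higher (33.4% in either direction), against 19.5% and 2.44% of the members. The 8 that fell were the PRC2 genes Ezh1, Mtf2, Phf1 and Phf19, the PRC1 genes Pcgf2 and Pcgf5, and the demethylases Kdm1a and Kdm6b; Pcgf1 rose. The median log2 fold change of members was -0.14, with 29 negative and 12 positive, against 0.03 over all genes and -0.18 over abundant genes. Groups did not overlap for 23 of 42 members, 17 of them lower in KO, against 65.6% of all genes in either direction and 31.1% lower.

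Other signals moved with these libraries. Erythroid markers, 8 genes, summed to 378 to 577 normalised CPM in LT-HSC WT and 2314 to 3183 in the libraries labelled KO, and 6 stromal and endothelial markers to 23.9 to 25.5 and 415 to 582, with Cxcl12 at 0 counts in LT-HSC WT. Megakaryocyte markers, 5 genes, went the other way, from 662 to 825 down to 241 to 292. The 8 LT-HSC markers summed to 1192 to 1239 in KO, and the 3 MPP markers to 89.5 to 94.0. Markers of T and natural killer cells, 3 genes, summed to 67.8 to 68.4 in LT-HSC WT and 10.7 to 14.8 in KO. Of these 3 genes, 2 were called lower and 1 higher. Granulocyte and monocyte markers, 6 genes, summed to 7.51 to 8.07 in LT-HSC WT and 35.8 to 39.6 in KO. B lineage markers, 4 genes, summed to 20.4 to 24.7 and 53.0 to 53.8. The part of these cells in the results was not tested. Long neuronal and muscle genes, which blood cells are not known to use, held a median of 4.58 and 4.73 counts per 100 kb of gene span in LT-HSC WT but 35.8 and 40.9 in LT-HSC KO, and 3.83 to 4.90 in MPP. The median was chosen after seeing the data. The planned density, summed counts over summed span, was 28.9 and 10.9 in replicates 1 and 2 of LT-HSC WT. It was 56.7 and 39.0 in those of LT-HSC KO, and 14.6 to 25.9 in MPP. At the median density the background would make up a median of 3.40% and 3.46% of a member's counts in LT-HSC KO, and 20.7% and 14.0% for Phf19. At the summed density it would be 28.8% and 15.2% for Phf19. Background shares given below use the median density.

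Among PRC2 core genes, Ezh1 fell from 76.5 and 63.4 normalised CPM in LT-HSC WT to 43.0 and 37.8 in KO (log2 fold change -0.78, SE 0.20, adjusted p = 0.0170), with both KO libraries below both WT libraries. Ezh2 had 159.0 and 140.8 in WT and 142.0 and 127.7 in KO and did not pass (-0.14, SE 0.17, adjusted p = 0.563), its groups overlapping. The other 4 core genes, Eed, Suz12, Rbbp4 and Rbbp7, lay between -0.16 and 0.38 and did not pass. The accessory genes, which steer PRC2 to chromatin, had 3 of 4 lower and a median of -0.67. Over all genes 10.9% were lower, and the median of abundant genes was -0.18. The calls of Phf1 and Mtf2 ended with libraries scaled on abundant genes and in DESeq2, as given further below. Phf19 fell from 19.4 and 26.4 CPM to 7.26 and 9.98 (-1.40, SE 0.30, adjusted p = 0.00818), and Phf1 from 55.2 and 40.5 to 29.4 and 27.3 (-0.75, SE 0.23, adjusted p = 0.0375). Mtf2, the third Polycomb-like Tudor gene, fell from 87.6 and 101.9 to 61.2 and 63.9 (-0.59, SE 0.16, adjusted p = 0.0248). In all 3 the KO libraries lay below the WT libraries. Jarid2 had 4527 and 3581 in WT and 3480 and 2933 in KO and did not pass (-0.33, SE 0.22, adjusted p = 0.303). Mtf2 overlaps Tmed5 on the opposite strand (-0.50, adjusted p = 0.0918), and it is not stated whether the counting used strand.

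Among PCGF genes, which set the type of PRC1, 2 fell, 1 rose and 3 did not pass. Pcgf2 fell from 55.9 and 55.5 normalised CPM in WT to 28.3 and 24.0 in LT-HSC KO (-1.07, SE 0.20, adjusted p = 0.00437). Pcgf5 fell from 142.5 and 119.0 to 89.7 and 76.4 (-0.64, SE 0.18, adjusted p = 0.0281), again without overlap of the libraries. Pcgf1, the PCGF subunit of the complex that Kdm2b brings to CpG-rich DNA, was the member that rose, from 0 and 2 counts in WT to 23 and 27 in KO (adjusted p = 0.00396). Its ratio of normalised counts was 24.8 (95% exact interval 6.53 to 210.7, counting error only), and the background density would give 5.31% and 3.96% of its KO counts. Bmi1 (-0.44), Pcgf3 (0.46) and Pcgf6 (-0.26) did not pass. The RING, CBX and PHC genes held no call: the 8 tested ranged from -0.47 (Rnf2, 60.5 and 71.8 CPM in WT, 43.6 and 51.3 in KO, adjusted p = 0.0796) to 0.47 (Cbx8). Cbx7 stood at 33.7 and 35.6 in WT and 32.7 and 34.2 in KO. The ASXL genes did not pass either.

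Among lysine demethylases, Kdm6b fell from 430.3 and 373.4 normalised CPM in LT-HSC WT to 208.2 and 192.4 in KO (-0.99, SE 0.17, adjusted p = 0.00300). Kdm1a fell from 106.3 and 105.5 to 62.8 and 59.7 (-0.78, SE 0.16, adjusted p = 0.00669). Neither overlapped between groups, and the background density amounts to 0.54% of the Kdm6b counts in each KO library. Luzp1, which overlaps Kdm1a on the opposite strand, did not pass (-0.22, adjusted p = 0.568). The other 6 demethylases lay between -0.14 and 0.10, among them Kdm2b at 86.5 and 105.5 CPM in WT and 92.8 and 100.6 in KO (0.02, SE 0.16). Sin3a, the scaffold of a deacetylase complex, stood at 86.5 and 67.8 in WT and 75.3 and 76.8 in KO (-0.01, SE 0.19). Ogt, which adds N-acetylglucosamine to nuclear proteins, had 164.8 and 205.3 in WT and 214.4 and 220.4 in KO (0.25, SE 0.16, adjusted p = 0.284). Hdac1, Hdac2, Hdac3, Crebbp and Ep300 lay between -0.24 and 0.07 without passing.

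**Figure D3:**
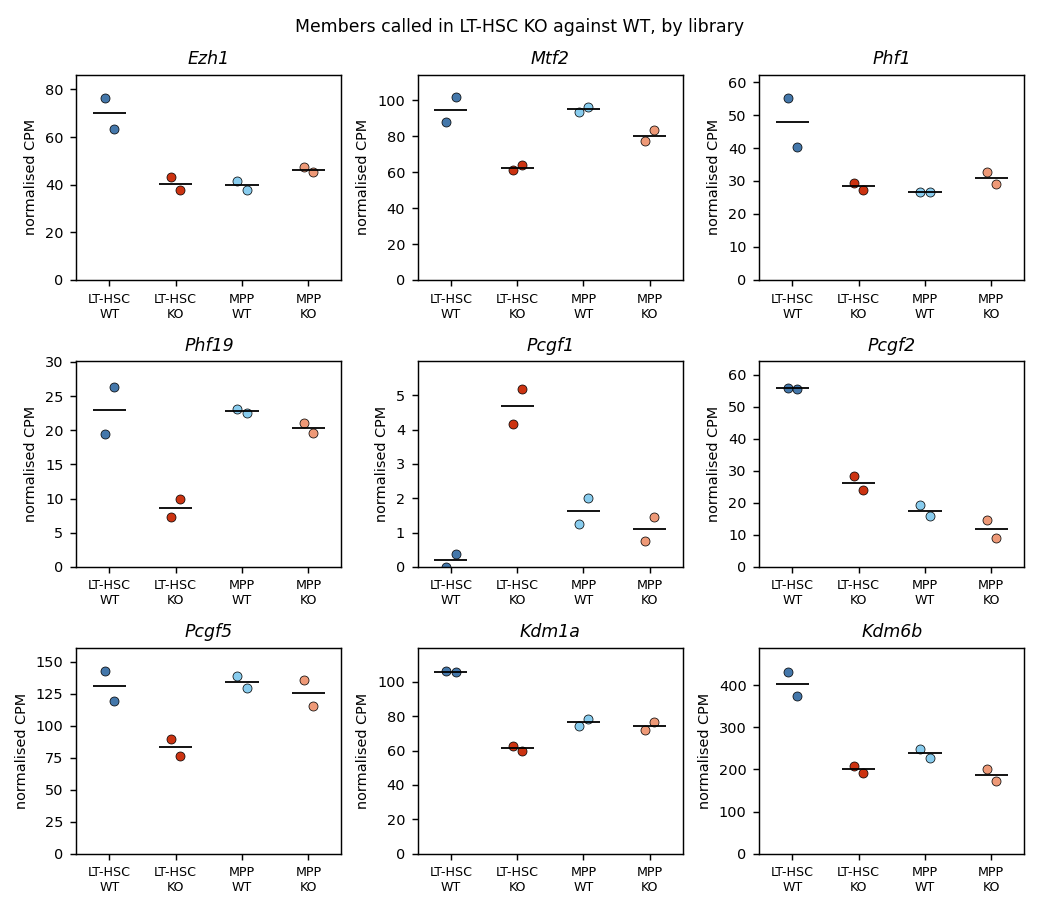
Normalised CPM in each of the 8 libraries (points) with group means (lines) for the 9 members that passed in LT-HSC KO against WT; each vertical axis starts at 0. Except for Pcgf1, which has 0 and 2 counts in LT-HSC WT, the LT-HSC WT libraries lie above the LT-HSC KO libraries, and in MPP the genotypes lie closer together.

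The authors' deposited table for LT-HSC calls 6 of these 9 members at a false discovery rate under 0.05: Pcgf1 higher, and Ezh1, Phf19, Pcgf2, Kdm1a and Kdm6b lower, where 27.5% of all its genes are higher and 8.47% lower. Without KO replicate 1 the calls that stayed were Kdm6b, Pcgf1 and Pcgf2, without KO replicate 2 they were Kdm6b, Pcgf1 and Phf19, and without WT replicate 1 those of Phf1 and Pcgf5 ended. With the summed background density subtracted, no member passed in edgeR after adjustment (7 lower and 4 higher at an unadjusted p under 0.05): the adjusted p of these 9 ran from 0.0536 (Pcgf2, -0.92) and 0.0549 (Kdm6b, -0.79) over 0.115 (Ezh1, -0.66) to 0.226 (Phf1, -0.56). With the median background density subtracted, a setting chosen after seeing the data, 5 of 9 stayed: Kdm1a (-0.65, adjusted p = 0.0336), Kdm6b (-0.79, 0.0220), Pcgf2 (-0.91, 0.0260), Phf19 (-1.43, 0.0320) and Pcgf1, while Ezh1 was at -0.65 (0.0694). With libraries scaled on abundant genes, which moved the median of all genes up by 0.18, the calls of Mtf2 (-0.41, adjusted p = 0.108), Phf1 (-0.56, 0.0880) and Pcgf5 (-0.46, 0.0683) ended. Phf1 also missed the threshold without the low-count filter (0.0609) and in DESeq2 (0.0511), as did Pcgf5 (0.0539) in the former and Mtf2 (0.0548) in the latter.

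In MPP, the same contrast of KO with WT called 1 of 41 members higher and none lower. The count of lower members at an unadjusted p under 0.05 was 5 in edgeR, and DESeq2 called none lower after adjustment and 3 before. Over all 14902 genes tested, 4.74% were higher and 2.46% lower (7.2% in either direction), against 2.44% and 0% of the members. Their median log2 fold change was -0.03, and -0.01 over all genes. Groups did not overlap for 21 of 42 members, against 55.2% of all genes. These fits did not use the replicate number, for which the labels give no shared origin. With that number as a block, the 1 call stayed and 21 further members passed, in both directions. Over all genes 3536 were then called higher and 3698 lower. Markers of granulocytes and monocytes, 6 genes, summed to 806 to 813 normalised CPM in MPP WT and 1662 to 1667 in MPP KO, with Ltf at 0 counts in MPP WT, and 8 erythroid markers to 346 to 442 and 591 to 743; their part in the results was not tested.

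The member that rose was Cbx7, a CBX reader of the PRC2 mark, from 21.9 and 19.7 normalised CPM in MPP WT to 34.2 and 35.8 in MPP KO (0.76, SE 0.10, adjusted p = 0.0218). Both MPP KO libraries lay near the 33.7 and 35.6 of LT-HSC WT. The call ended when any library was left out. Without either WT library no gene kept a call, so those fits cannot single out Cbx7. Its log2 fold change ran from 0.68 to 0.83 over the alternative settings other than the replicate block. The authors' deposited table for MPP calls Cbx7 as its 1 member, where 5.32% of its genes are higher and 2.58% lower. Cbx7 overlaps Apobec3 on the opposite strand, which had 306.8 and 287.2 CPM in MPP WT and 341.8 and 333.8 in MPP KO (0.19, SE 0.07, adjusted p = 0.167); reads of the overlap cannot be assigned without knowing the strand setting. The other 40 members lay between -0.57 (Pcgf2, 19.2 and 15.7 CPM in WT, 14.5 and 8.96 in KO, adjusted p = 0.222) and 0.22 (Ezh1, 41.7 and 37.9 in WT, 47.3 and 45.4 in KO, adjusted p = 0.185). Ezh2 (-0.07), Kdm2b (0.04), Sin3a (-0.08) and Ogt (0.03) did not pass. Eed, with 84.4 and 78.5 in WT and 67.5 and 60.8 in KO, came nearest to the threshold (-0.34, SE 0.08, adjusted p = 0.0791).

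Whether the difference between KO and WT itself differed between LT-HSC and MPP was tested as an interaction over all 8 libraries. Of 42 members, 8 passed and 34 did not, 2 with a positive and 6 with a negative difference (LT-HSC minus MPP), where 13.6% and 8.5% of 16551 genes did so (22.1% together). The 6 negative ones were Ezh1 (-1.01, SE 0.20, adjusted p = 0.0107), Phf1 (-0.97, SE 0.24, 0.0240), Phf19 (-1.24, SE 0.29, 0.0211), Cbx7 (-0.80, SE 0.19, 0.0191), Kdm1a (-0.75, SE 0.14, 0.0105) and Kdm6b (-0.65, SE 0.17, 0.0304). Cbx7 stood at -0.04 in LT-HSC and 0.76 in MPP. Phf19 (-1.40 and -0.16), Kdm1a (-0.78 and -0.03) and Kdm6b (-0.99 and -0.35) were negative in both, and in MPP none of these 3 passed. Ezh1 (-0.78 and 0.22) and Phf1 (-0.75 and 0.22) had opposite signs, with no overlap of the groups in either population, though neither passed in MPP. Eed passed with a positive difference (0.71, SE 0.19, adjusted p = 0.0314): it had 48.0 and 58.7 CPM in LT-HSC WT and 65.0 and 72.4 in KO, against 84.4 and 78.5 in MPP WT and 67.5 and 60.8 in KO, although it passed in neither population alone. Pcgf1 also passed (adjusted p = 0.0117), its counts being 0 and 2 in LT-HSC WT and 23 and 27 in LT-HSC KO. Pcgf2, Pcgf5 and Mtf2, which fell in LT-HSC, did not pass the interaction (adjusted p = 0.283, 0.0759 and 0.147). That fit, which did not use the replicate number, thus did not show their effects to differ between populations. With the number as a block, for which the labels give no shared origin, they were among 12 further members that passed. With that block Eed also passed in each population alone, and Ezh1 and Phf1 passed in MPP. Without MPP WT replicate 2 none of the 8 passed in edgeR (2 positive and 6 negative members at an unadjusted p under 0.05), without MPP WT replicate 1 only Ezh1 and Pcgf1 did, without MPP KO replicate 1 only Kdm1a and Pcgf1, and without LT-HSC KO replicate 1 only Ezh1, Kdm1a and Pcgf1. Ezh1, Kdm1a, Kdm6b and Pcgf1 stayed without MPP KO replicate 2, Phf1, Eed and Kdm6b were lost without LT-HSC KO replicate 2, and Eed and Kdm6b without LT-HSC WT replicate 1. With the summed background density subtracted, Kdm1a (adjusted p = 0.0414) and Eed (0.0314) passed, and Cbx7 (0.0509), Ezh1 (0.0541), Pcgf1 (0.0583), Phf19 (0.0595), Phf1 (0.128) and Kdm6b (0.200) did not. With the median density Phf1 (0.0792) and Kdm6b (0.139) were lost, and with libraries scaled on abundant genes Kdm6b (0.0556).

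**Figure D4:**
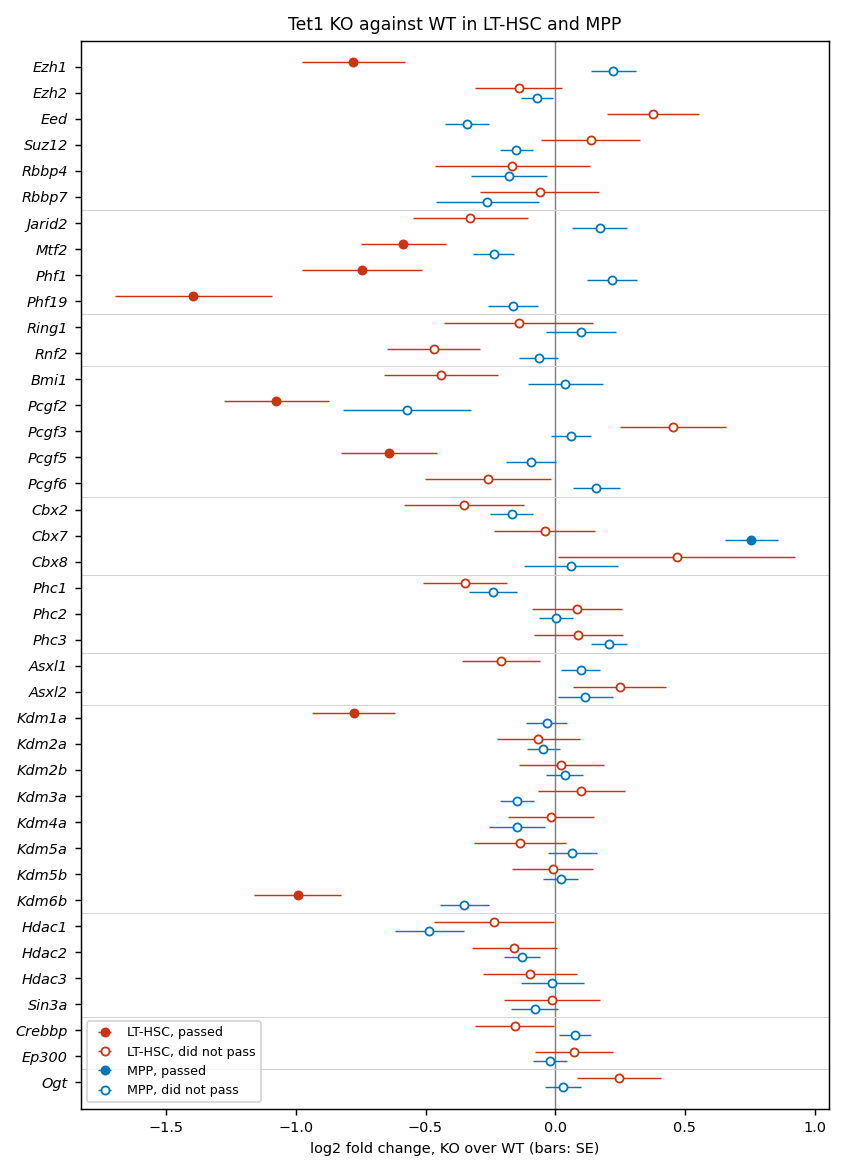
Log2 fold change of KO over WT for 40 members in LT-HSC (red) and MPP (blue), with bars of 1 SE; filled points passed an adjusted p of 0.05, and Cbx6 (not tested) and Pcgf1 (0 and 2 counts in LT-HSC WT) are left out. The filled LT-HSC points run from -0.59 (Mtf2) to -1.40 (Phf19), and Cbx7 at 0.76 is the filled MPP point.

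Ratios between related members in the same library do not depend on the scaling of libraries. Each of 12 pairs was chosen after its values were seen and has no test. The count ratio of Ezh1 to Ezh2 was 0.481 and 0.450 in LT-HSC WT, 0.303 and 0.296 in LT-HSC KO, 0.200 and 0.185 in MPP WT and 0.239 and 0.233 in MPP KO. No group overlapped another: the ratio was highest in LT-HSC WT, lowest in MPP WT, and in both KO groups between those. As a share of the pair, Ezh1 made up 32.5% and 31.0% in LT-HSC WT, 23.3% and 22.9% in LT-HSC KO, 16.7% and 15.6% in MPP WT and 19.3% and 18.9% in MPP KO. The mean log2 ratio was -1.10 ± 0.07 (SD, n = 2), -1.74 ± 0.02, -2.38 ± 0.08 and -2.08 ± 0.02 in the same order.

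Pcgf2 to Bmi1 likewise stood highest in LT-HSC WT, at 1.60 and 1.16, with 1.01 and 0.744 in LT-HSC KO, 0.301 and 0.212 in MPP WT and 0.231 and 0.114 in MPP KO, the last 2 groups overlapping. Cbx7 to Cbx2, alternative readers, was 1.43 and 1.34 in LT-HSC WT, 1.80 and 1.63 in LT-HSC KO, 0.668 and 0.617 in MPP WT and 1.19 and 1.25 in MPP KO, with no overlap among the groups. Crebbp to Ep300, paired acetyltransferases, moved little in size, from 0.893 in an LT-HSC KO library to 1.07 in LT-HSC WT. Its groups still did not overlap between genotypes in either population, or between the WT populations. Kdm2a to Kdm2b stayed between 2.29 and 2.55 in all 8 libraries, yet the genotypes did not overlap in either population. Separation of groups was thus not limited to the pairs that moved most. Rbbp4 to Rbbp7, histone-binding subunits shared with deacetylase complexes, was 2.89 and 1.02 in replicates 1 and 2 of LT-HSC WT, 2.25 and 1.16 in LT-HSC KO, 1.40 and 0.898 in MPP WT and 1.55 and 0.894 in MPP KO, every replicate 1 above every replicate 2. Within all 4 groups replicate 1 was also the higher in Ezh1 to Ezh2, Pcgf2 to Bmi1, Ring1 to Rnf2, Phf1 to Mtf2 and Asxl1 to Asxl2, and the lower in Hdac1 to Hdac2 and Kdm5a to Kdm5b, so 8 of the 12 ratios were ordered by replicate number within the groups.

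**Figure D5:**
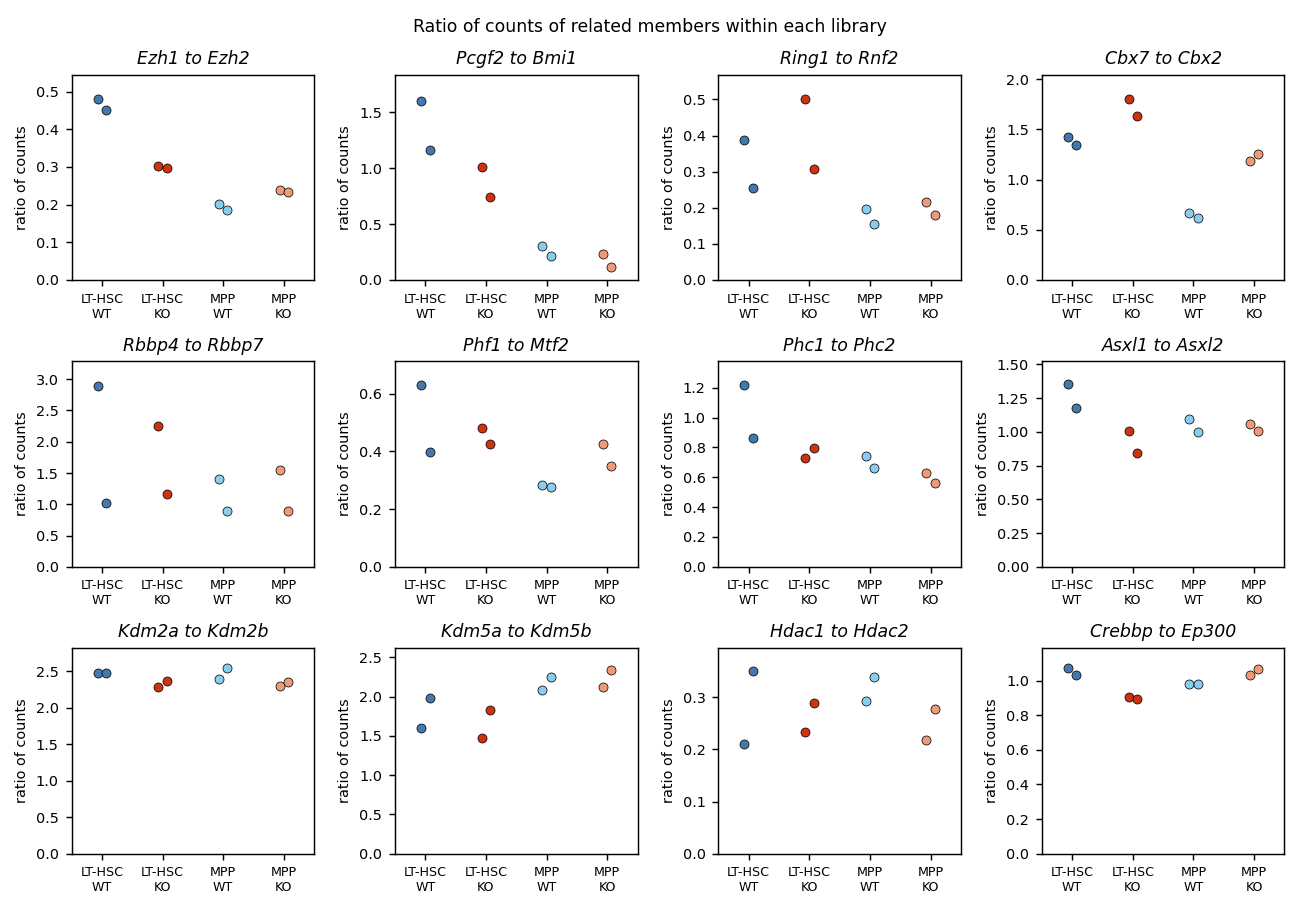
Count ratio of 12 pairs of related members in each library, by group; each vertical axis starts at 0. Ezh1 to Ezh2 is highest in LT-HSC WT (0.481 and 0.450) and lowest in MPP WT (0.200 and 0.185) with the KO groups between, Cbx7 to Cbx2 is higher in MPP KO than in MPP WT, and Rbbp4 to Rbbp7 separates replicate 1 from replicate 2 in every group.

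Other genes of these pathways were counted from 6 lists. In LT-HSC labelled KO, 24 other Polycomb genes held 3 higher and 2 lower, 13 other demethylases 2 higher, 36 other deacetylase and corepressor genes 2 higher and 3 lower, and 11 other acetyltransferases 2 lower; 22 trithorax and other lysine methyltransferase genes and 3 O-GlcNAc genes held no call. Over all genes 22.5% were higher and 10.9% lower; the lists' shares lie below these, except for the lower acetyltransferases. Scmh1, a PRC1 partner, fell (-0.73, SE 0.16, adjusted p = 0.00858), as did the class IIa deacetylase Hdac5 (-0.82, SE 0.20, 0.0144) and the coactivator Ncoa3 (-0.94, SE 0.15, 0.00263). Auts2 (2.31) and Scml2 (1.63) were called higher. Auts2 spans 1106 kb, and the background density alone would give 452 and 396 of its 472 and 425 counts in LT-HSC KO; for Scml2 it would give 57.6 and 50.5 of 180 and 158. The demethylase gene Jhdm1d rose by 1.67 (120 and 122 counts, 28.7 and 25.1 at the background density).

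In MPP KO, where 4.74% of all genes were higher and 2.46% lower, the lists held 3 higher calls and no lower one: L3mbtl1 with 14 and 20 counts against 1 in each WT library, and the X-linked demethylase genes Kdm6a (0.53, SE 0.08, adjusted p = 0.0290) and Kdm5c (0.40, SE 0.07, adjusted p = 0.0428). Both are known to escape X inactivation, and the Y-linked counts given above were higher in the WT libraries of both populations, so sex and genotype cannot be told apart for them. In LT-HSC neither passed. There Kdm6a had 119.4 and 120.4 normalised CPM in WT and 136.5 and 152.4 in KO. Kdm5c had 213.8 and 210.7 in LT-HSC WT and 193.0 and 201.2 in LT-HSC KO. The part of sex was not tested. The X-linked members Ogt and Rbbp7 did not pass in either population. Between WT LT-HSC and WT MPP, the lists held calls in both directions, with 2 higher and 2 lower of 24 other Polycomb genes, 0 and 4 of 13 other demethylases, 5 and 2 of 36 deacetylase and corepressor genes, 0 and 1 of 11 acetyltransferases, 1 and 4 of 23 methyltransferase genes and 1 and 0 of 3 O-GlcNAc genes, where 17.4% and 16.9% of all genes were called. Among those higher were Hdac11 (1.57) and the H3 methyltransferase Dot1l (0.75, SE 0.12, adjusted p = 0.00641), and among those lower were Suv39h2 (-1.59), the MBT-domain gene L3mbtl3 (-0.98) and the histone acetyltransferase Hat1 (-0.81, SE 0.12, adjusted p = 0.00550).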

How the data were processed

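Libraries of poly(A) RNA, 2 per group and 8 in all, were read as pairs of 50 bp. Per the submitters' processing notes, CASAVA, TopHat and the mm9 build were used; versions, the read counter, its strand setting and its gene models are not named in those notes. In each population's table the authors deposited raw counts of every library by gene, and, per the file headers, their own log2 fold change and their FDR-adjusted p-value. Genotype and replicate number in the column names gave the sample, and 0 columns stayed unmatched. The members, gene lists and tests were chosen with earlier results of these data known. The rule for named genes was: all 42 members accounted for, library values for members called in any comparison and for Ezh1, Ezh2, Kdm2b, Sin3a and Ogt, and at most 4 called genes per other list and comparison, by absolute log2 fold change.

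Raw counts were tested with edgeR 4.0.16 in R 4.3.3 (filterByExpr, TMM scaling, quasi-likelihood test, Benjamini-Hochberg adjustment over all genes tested, called at an adjusted p under 0.05). Each fit used the groups compared, and the interaction used all 8 libraries. Normalised CPM are counts scaled to library size with TMM factors over 8 libraries, and levels per kb use plain CPM and GENCODE exon lengths. The SE was derived from the log2 fold change and the F statistic. Alternatives were DESeq2 1.42.0, other scalings and filters, a replicate block, background subtraction and leaving out each library. Background per kb came from long genes silent in blood. Scripts were tested on simulated data. The other lists were other Polycomb genes, other lysine demethylases, deacetylase and corepressor genes, acetyltransferases, trithorax and other lysine methyltransferases, and the O-GlcNAc cycle.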

Additional observations from a re-analysis of the deposited data

Results flagged for a closer look

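For 8 of 42 members the difference between KO and WT in LT-HSC differed from that in MPP, by the edgeR interaction test over all 8 libraries. Over all 16551 genes tested 22.1% passed, 13.6% with a positive and 8.5% with a negative difference (LT-HSC minus MPP). Among the members 4.76% were positive and 14.3% negative. Kdm1a (adjusted p = 0.0105), Phf19 (0.0211) and Kdm6b (0.0304) were lower in LT-HSC labelled KO, with log2 fold changes nearer 0 in MPP. Ezh1 (0.0107) and Phf1 (0.0240) were lower in LT-HSC labelled KO and stood at 0.22 each in MPP. Neither passed in MPP without a replicate block. Cbx7 (adjusted p = 0.0191) was higher in KO in MPP, at 34.2 and 35.8 against 21.9 and 19.7 normalised CPM, and stood at 32.7 and 34.2 against 33.7 and 35.6 in LT-HSC. Eed (adjusted p = 0.0314) was higher in KO in both LT-HSC libraries and lower in both MPP libraries. Pcgf1 (adjusted p = 0.0117) rests on 0 and 2 counts in LT-HSC WT. Without MPP WT replicate 2 none of the 8 passed in edgeR, with 2 higher and 6 lower at an unadjusted p under 0.05. Groups held 2 libraries each, too few to look for a library that stands apart.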

How the results depend on the processing

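Counts of called members (lower, higher) are 8 and 1 in LT-HSC, 0 and 1 in MPP, 6 and 7 between WT populations and 6 and 2 in the interaction. With libraries scaled on abundant genes, 5 fell in LT-HSC; that scaling moved the median of all genes by 0.18 and the higher share of calls from 67.3% to 80.9% (interaction: 0.13, and 61.6% to 73.8%). With background subtracted from summed density, 0 fell and 0 rose in LT-HSC by edgeR (7 and 4 at an unadjusted p under 0.05), 1 was lower between WT populations, and 1 was lower and 1 higher in the interaction. With the median density, added after seeing the data, 4 fell in LT-HSC. It was added because Il1rapl1 held 74.7% of the sum in LT-HSC WT replicate 1 and 57.1% in MPP WT replicate 1. In the other libraries Il1rapl1 held 9.04% to 36.7%, with 27.4% and 9.04% in LT-HSC KO. Without the low-count filter, 2 were lower between WT populations. The mean log2 ratio of Ezh1 to Ezh2 in LT-HSC KO was -1.79 and -1.78 under the 2 subtractions, against -1.74. Leaving out each library gave 2 to 9 lower and 1 to 2 higher in LT-HSC, 0 and 0 in MPP (edgeR; 1 to 5 lower and 1 to 2 higher at an unadjusted p under 0.05), 0 to 10 lower and 1 to 10 higher between WT populations, and 0 to 8 lower and 0 to 3 higher in the interaction; a lone library is assumed to vary like its counterparts. No member changed direction after a call. Of the values for single members and settings, 1907 kept their side of the threshold, 123 lost it and 74 gained it. The cause of these shifts was not tested.

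Over all genes, calls higher and lower in LT-HSC went from 3529 and 1717 to 521 and 257 with summed background subtracted, 1149 and 833 with the median density, 3995 and 943 with abundant scaling, 1946 and 379 without KO replicate 1 and 2519 and 487 without KO replicate 2. In MPP they went from 707 and 366 to 397 and 178 without the filter, 352 and 148 with all 8 libraries in 1 fit, 547 and 240 with summed background subtracted, 213 and 55 or 201 and 46 without KO replicate 1 or 2, and 0 and 0 without either WT library. Between WT populations they went from 2544 and 2478 to 1553 and 1642 with summed background subtracted, 1308 and 1313 without MPP WT replicate 1 and 1288 and 1176 without replicate 2. In the interaction they went from 2256 and 1407 to 536 and 498 or 1007 and 1048 under the 2 subtractions, and to as few as 798 and 334 without MPP WT replicate 2.

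The labels number replicates 1 and 2 in each group without giving a shared origin, so the numbers were not used as pairs. Same-numbered libraries deviated together. The difference of replicate 1 from replicate 2 in log CPM was correlated across genes between the 2 groups compared. The correlation was 0.42 over 15684 genes in LT-HSC, 0.68 over 14902 in MPP and 0.46 over 14660 between WT populations, with 2 libraries per group. With the replicate number as a block, 14 members were lower and 5 higher in LT-HSC, 14 and 8 in MPP, 10 and 9 between WT populations, and 16 and 4 in the interaction, and calls over all genes were 4815 higher and 4009 lower in LT-HSC, 3536 and 3698 in MPP, 4038 and 3781 between WT populations and 4043 and 3903 in the interaction. Depth limits Pcgf1, Cbx6 and Cbx8, which held few counts.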

Other observations

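Outside the members, the interaction test called genes of the same pathways in both directions. Of 25 other Polycomb genes 2 passed with a positive and 2 with a negative difference (LT-HSC minus MPP), of 13 demethylases 3 and 2, of 36 deacetylase and corepressor genes 0 and 2, of 11 acetyltransferases 1 and 2, of 23 methyltransferase genes 0 and 2, and of 3 O-GlcNAc genes 0 and 1, where 13.6% and 8.5% of all genes passed. Scmh1 (-1.03, SE 0.16, adjusted p = 0.00500), Ncoa3 (-0.88, SE 0.14, 0.00537), Bcor (-0.55, SE 0.14, 0.0258), a partner of Pcgf1 in a PRC1 form, and the trithorax cofactor Men1 (-0.70, SE 0.19, 0.0319) were negative. Hat1 (0.53, SE 0.15, 0.0341) was positive.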
